A study of Mus musculus with 6 samples.

Results

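In embryonic mouse conjunctiva, at the fornix, 10 genes were read that restrain the cell cycle or answer growth arrest and stress: 4 inhibitors of cyclin-dependent kinases (Cdkn1a, Cdkn1b, Cdkn1c and Cdkn2c), the antiproliferative genes Btg1 and Btg2, the atypical cyclin gene Ccng2, and Gadd45a, Gadd45b and Gadd45g. They were found by gene name, as every probe that the array annotation gives to these 10 genes, which was 10 of 19057 genes with a symbol and 20 of 45281 probes. The KO embryos were Fgfr2 fx/fx and Le-Cre-positive, and the WT embryos were wild type, all at stage E14.5 and on a mixed background of FVB and 129, with 3 embryos and 3 arrays in each group. Le-Cre is driven by a Pax6 enhancer active in the ocular surface ectoderm, and since the WT embryos are labelled wild type, carrying the transgene and losing Fgfr2 cannot be told apart. Each embryo's epithelium was cut by laser from frozen sections of 10 µm, and 15 ng of its RNA was amplified before labelling. The extraction notes speak of future lens tissue, whereas the tissue labels name the conjunctival epithelium, which is followed here.

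A cell divides when cyclins activate their kinases, and the products of the Cdkn genes act as brakes on that step. CDKN1 proteins (p21, p27 and p57) bind cyclin and kinase together, whereas CDKN2C belongs to the INK4 group, which binds the kinases that pair with D-type cyclins. BTG proteins bind the CCR4-NOT deadenylase, which shortens the tails of messenger RNAs, and GADD45 proteins bind and activate the kinase MAP3K4 upstream of p38 and JNK. In epithelia these genes are known from tissues where cells leave the cycle to differentiate, and Btg2, Cdkn1a and Gadd45a are also textbook targets of p53.

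Btg2 was the one gene of the 10 that passed the test, and its close relative Btg1 had a change of the opposite sign that did not pass. The windows around the start of both genes are shown because the pair parted in this way. They run from 250 bases before to 50 bases after the RefSeq start on GRCm38.p6, printed 5′ to 3′ on the strand of the gene. Btg1 is on chr10:96616751-96617050 (plus strand) and Btg2 on chr1:134079106-134079405 (minus strand). Capitals mark the cAMP response element TGACGTCA, the FOXO site GTAAACA, the CCAAT box and the TATA box TATAAA, each searched on both strands.
Btg1: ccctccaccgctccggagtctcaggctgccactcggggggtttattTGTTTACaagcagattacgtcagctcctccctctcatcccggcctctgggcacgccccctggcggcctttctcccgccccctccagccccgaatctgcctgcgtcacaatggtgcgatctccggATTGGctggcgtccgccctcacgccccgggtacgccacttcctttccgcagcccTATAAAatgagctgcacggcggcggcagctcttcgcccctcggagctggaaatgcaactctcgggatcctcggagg
Btg2: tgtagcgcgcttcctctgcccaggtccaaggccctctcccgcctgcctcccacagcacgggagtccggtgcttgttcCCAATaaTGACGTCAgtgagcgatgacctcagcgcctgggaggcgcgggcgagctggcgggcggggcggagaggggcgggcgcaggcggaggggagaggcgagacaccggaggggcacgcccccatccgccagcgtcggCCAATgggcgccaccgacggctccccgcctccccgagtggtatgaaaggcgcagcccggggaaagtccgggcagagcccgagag

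The Btg2 window held TGACGTCA, which 1.79% of all 32851 RefSeq windows of this length hold, with its first base at position -166 from the start. The Btg1 window held GTAAACA on the opposite strand with its first base at -204, against 3.65% of all windows, and TATAAA at -26, against 13.6%. Both windows held CCAAT, as 37.4% of all windows do. Of the 10 genes, 9 matched the RefSeq windows (all but Cdkn1c), and among these TGACGTCA was found for Btg2 and GTAAACA for Btg1 alone. The E-box CACGTG, in 7.15% of all windows, was found in windows of Cdkn2c, Gadd45b and Gadd45g. These motifs were picked after the windows were seen, and a match is a description of the letters only.

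On the arrays 34.6% ± 0.32 of probes were detected in KO and 49.5% ± 1.04 in WT (SD, n = 3), where detected means a detection p below 0.05 against negative controls. The lowest level still called detected lay between 5.36 and 5.41 for KO and between 4.62 and 4.67 for WT (log2 normalized intensity, the scale of every level below). Fgfr2 itself, the targeted gene, differed by 0.16 on the log2 scale with an SE of 0.26 at its brightest probe (limma adjusted p = 0.79) and did not pass; the labels do not say which exons are lost, so this checks nothing. Of the 20 probes of the 10 genes, 9 to 12 were detected on each KO array and 15 to 16 on each WT array. Of the 20, 16 passed the filter, which asked for detection on 3 or more arrays, with at least 1 probe for each gene. The remaining 4 were 1 probe of Cdkn1a, 2 of Cdkn2c and 1 of Gadd45g. For 6 of the 10 genes the probe used was detected on all 6 arrays, and these were Cdkn1a, Cdkn1b, Cdkn1c, Btg1, Btg2 and Ccng2. Changes are KO minus WT, and a gene passed at an adjusted p below 0.05 over all 13916 tested items.

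Btg2, an antiproliferative gene that many stimuli induce early, was higher in all 3 KO embryos. Its level was 10.83, 10.77 and 10.53 in KO embryos A, B and C and 7.40, 7.39 and 7.72 in WT embryos A, B and C. Every KO value lay far above every WT value, and the embryos within a group lay close together. Before any normalization the bead signal of its single probe was 1645, 1695 and 1260 on the KO arrays and 309, 303 and 379 on the WT arrays, so the difference stood in the scanner values too. The bead standard error ran from 49.0 to 68.5 for KO and from 11.7 to 14.2 for WT, small beside the gap between the groups.

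Btg2 rose by 3.21 on the log2 scale, with group means of 10.71 ± 0.16 for KO and 7.51 ± 0.19 for WT (SD, n = 3), an SE of 0.28 and a limma adjusted p = 0.0094. That is 9.23-fold, with a 95% interval of 2.53 to 3.88 on the log2 scale, and ranks 31 by p among all tested items. Over the alternatives its log2 fold change stayed between 2.62 (no scaling between arrays) and 3.39 (cyclic loess). The call was lost without WT embryo A, B or C (adjusted p = 0.094, 0.077 and 0.065, with log2 fold changes of 3.19, 3.19 and 3.36), settings in which 12, 22 and 32 of all items passed.

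**Figure D1:**
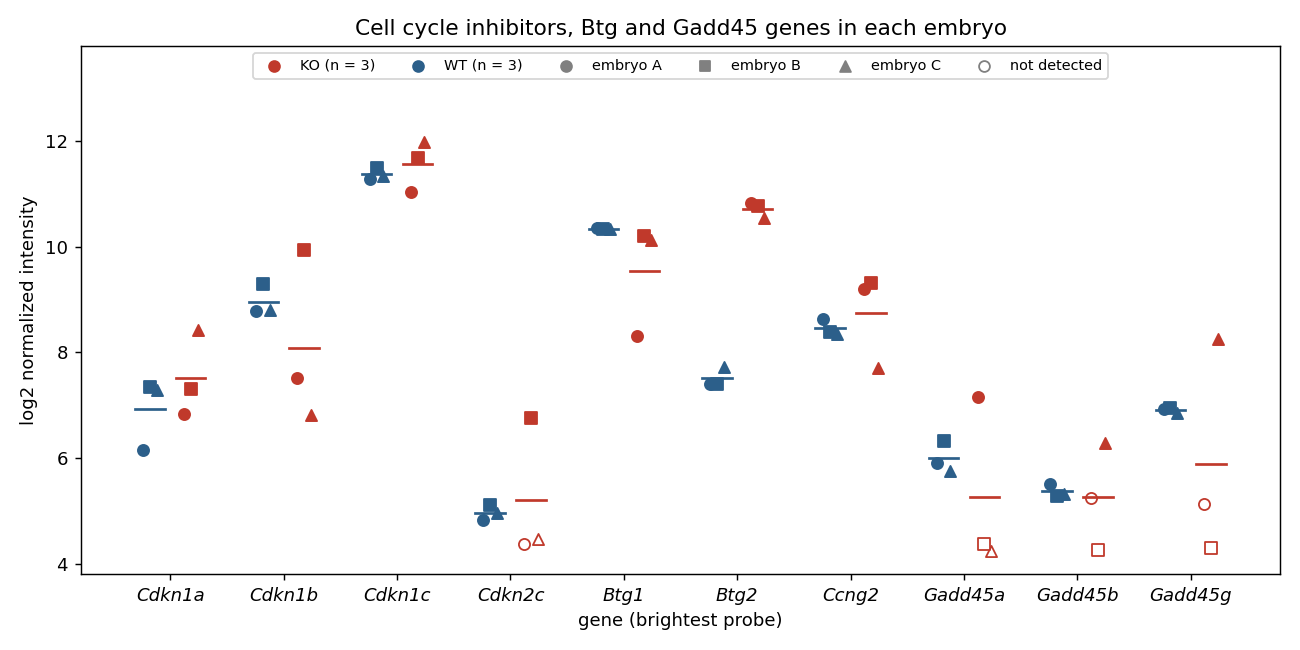
Level of each gene (log2 normalized intensity, brightest probe) in each embryo; filled points are detected, open points are not, and lines are group means of 3 embryos. Letters name different embryos in KO and WT. Btg2 separates the groups by the widest gap, at 10.53 to 10.83 in KO and 7.39 to 7.72 in WT, and the Gadd45 genes and Cdkn2c show 1 high KO embryo beside open points.

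Btg1, the paralog of Btg2 that also binds the CCR4-NOT deadenylase, had lower KO values at both of its probes. At the brighter one the level was 8.31, 10.21 and 10.13 in KO embryos A, B and C and 10.35, 10.33 and 10.33 in the WT embryos. The WT embryos were nearly alike, KO embryos B and C lay just under them, and KO embryo A lay well below. The other probe read 9.12, 9.15 and 9.14 in KO and 9.58, 9.90 and 9.50 in WT, where KO embryo A did not stand apart.

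For Btg1 the groups did not overlap at either probe, with log2 fold changes of -0.79 (SE 0.56, adjusted p = 0.50 in limma) and, when every probe was tested on its own, -0.52 (SE 0.29, adjusted p = 0.40). Neither passed, and the 95% interval at the brighter probe ran from -2.15 to 0.58. Without KO embryo A the value at the brighter probe was -0.17, so that embryo sets most of its size. At the brightest probe of each gene, 2 of the 10 had groups that did not overlap, Btg1 with all KO values below WT and Btg2 with all above, while among all tested items 28.5% did not overlap (17.2% below, 11.3% above).

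Ccng2, an atypical cyclin linked to arrest rather than division and a known FOXO target, did not pass. Its level was 9.20, 9.31 and 7.70 in KO embryos A, B and C and 8.63, 8.38 and 8.36 in the WT embryos. KO embryos A and B lay above all WT embryos and KO embryo C below them. The log2 fold change was 0.29 (SE 0.49, adjusted p = 0.80), with a 95% interval of -0.92 to 1.49, and it became -0.31 when arrays were not scaled. The value rests on single KO embryos, at 0.054 without KO embryo A, 0.0047 without B and 0.79 without C.

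None of the 4 kinase inhibitors passed. Cdkn1c (p57), an imprinted inhibitor expressed where embryonic cells leave the cycle, was the brightest of the 10: 11.03, 11.69 and 11.99 in KO embryos A, B and C and 11.27, 11.49 and 11.35 in the WT embryos. The KO values spanned the WT values on both sides, with a range of 0.96 in KO and 0.21 in WT. Its log2 fold change was 0.20 (SE 0.34, adjusted p = 0.80), and the 95% interval of -0.63 to 1.04 was the second narrowest of the 10 genes, after that of Btg2. The sign turned to -0.25 with no scaling between arrays and to -0.0085 without KO embryo C, and the value was 0.47 without KO embryo A.

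Cdkn1b (p27), an inhibitor controlled largely by protein turnover, spread widely among KO embryos. At its brightest probe the level was 7.51, 9.93 and 6.82 in KO embryos A, B and C and 8.77, 9.30 and 8.79 in the WT embryos. KO embryo B lay above all WT embryos and the other KO embryos below them, with an SD of 1.64 in KO and 0.30 in WT (n = 3). A second probe gave the same picture for embryo B, with 4.27, 8.22 and 5.70 in KO and 7.19, 6.73 and 7.57 in WT. Its log2 fold change was -0.87 (SE 0.82, adjusted p = 0.62) at the brightest probe and -1.10 (SE 0.98, adjusted p = 0.61 with every probe tested) at the second. The value at the second rests in part on KO embryo A, which was undetected there. Without KO embryo B the first became -1.76 (adjusted p = 0.068) and without KO embryo C -0.23 (adjusted p = 0.88). The third probe was detected on no KO array and read 4.45 to 5.14 in KO and 4.87 to 5.43 in WT.

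Cdkn1a (p21), the inhibitor induced by p53, had higher group means in KO at both probes that passed the filter and did not pass the test. At the brighter probe the level was 6.83, 7.31 and 8.42 in KO embryos A, B and C and 6.15, 7.35 and 7.29 in the WT embryos. At the other it was 7.12, 7.28 and 6.15 in KO and 5.22, 5.86 and 6.04 in WT, where the groups did not overlap. KO embryo C was the highest KO embryo at the first probe and the lowest at the second. The log2 fold changes were 0.59 (SE 0.56, adjusted p = 0.62) and, with every probe tested, 1.14 (SE 0.44, adjusted p = 0.24). At the brighter probe the value became -0.041 under median scaling and -0.36 when arrays were not scaled. It was 0.14 without KO embryo C, 0.20 without WT embryo A and 0.91 without KO embryo A. The third Cdkn1a probe, below the filter, was detected on no array.

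Cdkn2c, the INK4 member of the set, was dim. Its level was 4.38, 6.75 and 4.47 in KO embryos A, B and C and 4.84, 5.11 and 4.96 in the WT embryos. At this probe, the one used, it was detected on all WT arrays and, in KO, in embryo B alone, which was also the highest of all 6. The log2 fold change of 0.23 (SE 0.68, adjusted p = 0.89) therefore rests in part on values under the detection limit. The lowest level that KO arrays could detect lay above every WT value, so without embryo B neither size nor sign can be read.

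The 3 Gadd45 genes, small stress-induced partners of MAP3K4, did not pass, and each was detected in a single KO embryo at the probe used. Gadd45g read 5.13, 4.30 and 8.25 in KO embryos A, B and C and 6.93, 6.94 and 6.86 in the WT embryos. Embryo C was the one KO embryo with a detected signal and it lay above all WT embryos, whose values differed by 0.080 at most. The bead signal there was 302 with a bead standard error of 9.37, against 107 and 97.0 on the other KO arrays and between 253 and 263 in WT.

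The Gadd45g difference was -1.02 on the log2 scale (SE 1.01, adjusted p = 0.64). Without KO embryo C the gene passed as lower in KO (adjusted p = 0.047), so that embryo decides the call; both remaining KO arrays are then undetected and give no exact fold. Without KO embryo B the difference was -0.24. The second Gadd45g probe was detected on no array and read 4.37 to 4.54.

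Gadd45a, a p53 target named for arrest after DNA damage, gave unlike pictures at its probes. At the brighter probe it read 7.15, 4.38 and 4.24 in KO embryos A, B and C and 5.90, 6.33 and 5.75 in the WT embryos, with embryo A the single KO array that detected it. At the other probe it read 4.46, 4.46 and 4.69 in KO, undetected on all 3 arrays, and 5.80, 5.91 and 6.09 in WT. The KO embryos therefore lay below WT at both probes except for embryo A at the first.

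The brighter Gadd45a probe gave -0.73 on the log2 scale (SE 0.82, adjusted p = 0.68). The second, tested with every probe, had a limma adjusted p = 0.075 and did not pass. Its measured means were 4.54 in KO and 5.93 in WT. The WT mean at this probe lay 1.46-fold above the lowest level that KO arrays could detect. KO embryo A was detected at the brighter probe, so no least fold can be given for the gene. Without KO embryo A this second probe was the brighter of the pair and again did not pass (adjusted p = 0.061). At the brighter probe the difference was -0.38 without KO embryo B, -0.29 without KO embryo C and -0.0035 with cyclic loess scaling.

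Gadd45b, which growth factors and TGF-beta induce, was dim in most embryos at both of its probes, which disagreed in sign. At the probe used it read 5.25, 4.27 and 6.29 in KO embryos A, B and C and 5.52, 5.28 and 5.31 in the WT embryos. At the other it read 4.63, 5.94 and 7.33 in KO and 4.80, 4.37 and 4.58 in WT. KO embryo C was the highest of all 6 at both, and detected at both. The log2 fold changes were -0.10 (SE 0.54, adjusted p = 0.94) and, with every probe tested, 1.39 (SE 0.68, adjusted p = 0.35). The 2 probes were nearly equal in mean brightness, and the sign of the gene's value turned under 9 alternatives, 6 of which took the other probe.

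**Figure D2:**
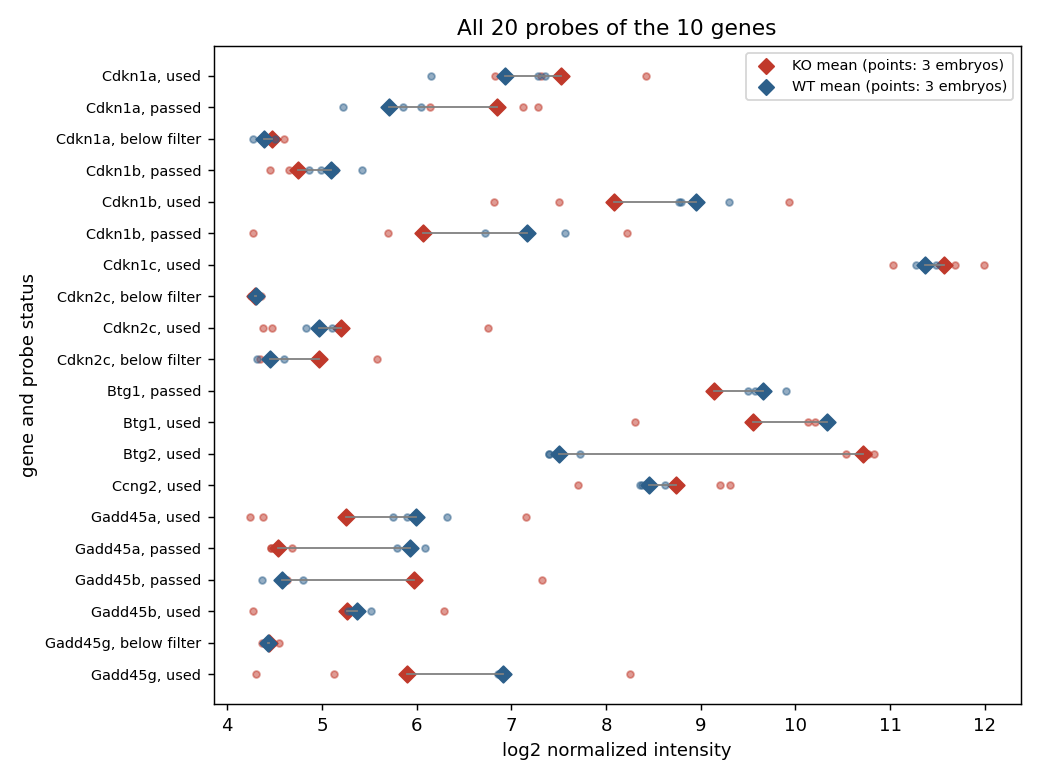
All 20 probes of the 10 genes: diamonds are group means and small points the 3 embryos of each group (log2 normalized intensity), with each probe marked as used, as passing the filter or as below it. Probes of Btg1 and Cdkn1b lean the same way within a gene, and those of Gadd45b lean opposite ways, at -0.10 and 1.39.

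At the probe used, the SD was larger in KO than in WT for 9 of the 10 genes, Btg2 being the exception, which is near the share of 83% among all tested items. The second probes of Btg1 (0.016 in KO, 0.21 in WT) and Gadd45a (0.13 and 0.15) had the smaller SD in KO. The median SD of the 10 genes was 1.04 in KO and 0.14 in WT, and over all tested items it was 0.80 and 0.30. No single KO embryo carried the high values: embryo A was the highest of the 3 for 2 genes (Btg2 and Gadd45a), embryo B for 4 and embryo C for 4.

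At an adjusted p below 0.05, 1 of the 10 genes was higher in KO and 0 were lower, while 0.826% of all tested items were called higher and 1.59% lower (2.41% in either direction). With no multiple-test adjustment, Btg2 was again the one gene with a limma p below 0.05, where 19.4% of all tested items had one. The median log2 fold change of the 10 genes was 0.050, with 5 positive and 5 negative, beside -0.088 for all tested items. By role, the median was 0.22 for the 4 kinase inhibitors and -0.73 for the 3 Gadd45 genes. The rest of the set, Btg1, Btg2 and Ccng2, had changes of -0.79, 3.21 and 0.29.

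**Figure D3:**
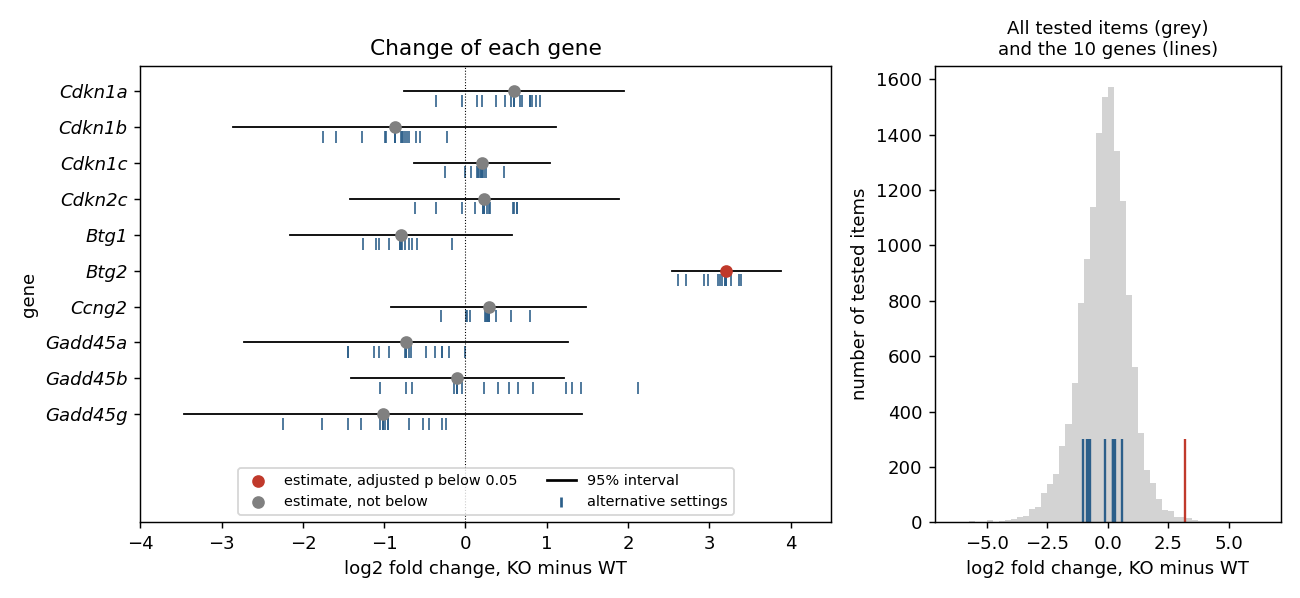
Left, log2 fold change (KO minus WT) of each gene with its 95% interval, and as ticks its value under each alternative setting. Right, the same estimates as lines over the histogram of all 13916 tested items; Btg2 at 3.21 lies in the upper tail and the other 9 lie between -1.02 and 0.59.

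Genes that act with these 10 were read from lists. Several named list genes were not detected on every array of a group, so their values give no exact fold. Among them, Btg3, Cnot3, Fas and Ier3 were detected on 1 KO array each and Peg10 on 1 WT array. Among 12 tested members of 13 other cell cycle inhibitors and pocket proteins, 1 fell, 0 rose and 11 did not pass, with a median log2 fold change of -0.26. The one that fell was Cables1, which links cyclin-dependent kinases to tyrosine kinases. It read 4.32, 4.34 and 4.54 in the KO embryos, undetected on all 3 arrays, and 7.70, 7.56 and 7.32 in the WT embryos, and was at least 4.41-fold lower (adjusted p = 0.0094). Members with the next smallest p were Cdkn3, a phosphatase that acts on CDK2, at -1.54 (adjusted p = 0.15), Pkmyt1, a kinase that holds CDK1 inactive, at 1.17 (adjusted p = 0.19), and the pocket protein gene Rbl1 at 0.71 (adjusted p = 0.60).

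Of the 20 tested CDK, cyclin and cycle genes among 21 listed, 1 fell, 0 rose and 19 did not pass, with a median of 0.12. Ccnd2, a D-type cyclin, read 8.32, 8.56 and 7.37 in the KO embryos and 10.72, 10.65 and 10.77 in the WT embryos, and fell by 2.63 (SE 0.39, adjusted p = 0.033). All KO values lay below all WT values. Cdc25b, Ccnd1 and Pcna followed at 0.93, -1.30 and -0.54, with adjusted p-values of 0.18, 0.31 and 0.35.

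No other BTG or TOB gene and no deadenylase subunit passed among 18 tested of 19, with a median of -0.50. Of these, 15 had negative and 3 positive values, where 7560 of all 13916 tested items were negative. Pabpc1, the poly(A)-binding protein, stood at -1.22 (adjusted p = 0.085), Btg3, a further BTG gene, at -1.21 (adjusted p = 0.15), and the CCR4-NOT subunit genes Cnot3 and Cnot6l at -2.26 (adjusted p = 0.28) and -0.76 (adjusted p = 0.29). Of 11 tested genes of 12 in a list of GADD45 partners and the kinases below them, none passed. Map3k4, the kinase that GADD45 proteins activate, stood at -2.19 (adjusted p = 0.21), Map2k4, a kinase upstream of JNK, at 0.68 (adjusted p = 0.33), and the p38 genes Mapk13 and Mapk14 at -1.12 (adjusted p = 0.40) and -0.72 (adjusted p = 0.42).

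None of 22 tested p53 genes of 26 passed, with a median of -0.14. Fas, a death receptor, stood at -1.23 (adjusted p = 0.15). Ddit4 and Bbc3 had values of -0.54 and -1.58 (adjusted p = 0.33 and 0.34). The RNA-binding gene Zmat3 was undetected on all KO arrays and did not pass (adjusted p = 0.27). Its WT mean lay 1.24-fold above the lowest level that KO arrays could detect. The KO and WT values of Zmat3 overlapped, so no least fold can be given. Of 14 tested FOXO genes of 19, none passed, with a median of -0.011. Cited2 and Sod2 stood at 0.86 (adjusted p = 0.17) and 0.77 (adjusted p = 0.31), and Bcl6 and Txnip at -2.12 (adjusted p = 0.32) and -1.01 (adjusted p = 0.40). Among 10 tested genes of 11 in a broad list around turnover of the p27 and p57 proteins, none passed. Not all of these genes act on those proteins directly. Rnf123, Fbxo4, Rbx1 and Kpna2 had values of 1.46, 1.58, 0.48 and -0.62, with a smallest limma adjusted p = 0.22.

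Imprinted genes, the class to which Cdkn1c belongs, had a median of 0.47 over 14 tested of 20, with 10 positive and 4 negative, and none passed. Peg10 stood at 2.22 (adjusted p = 0.099), Dlk1 at 3.00 (adjusted p = 0.13), Igf2r at -1.79 (adjusted p = 0.17) and Peg3 at 0.69 (adjusted p = 0.29). Immediate early and stress genes, the class in which Btg2 is often placed, had 13 tested of 19 and none passed. Their median was -0.33, or 0 with the gene undetected in KO at its bound. Fos stood at 2.75 (adjusted p = 0.078) and Klf4 at 1.83 (adjusted p = 0.15), while Zfp36 stood at -1.60 (adjusted p = 0.084) and Ier3 at -2.79 (adjusted p = 0.20), so members of the class pointed both ways.

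**Figure D4:**
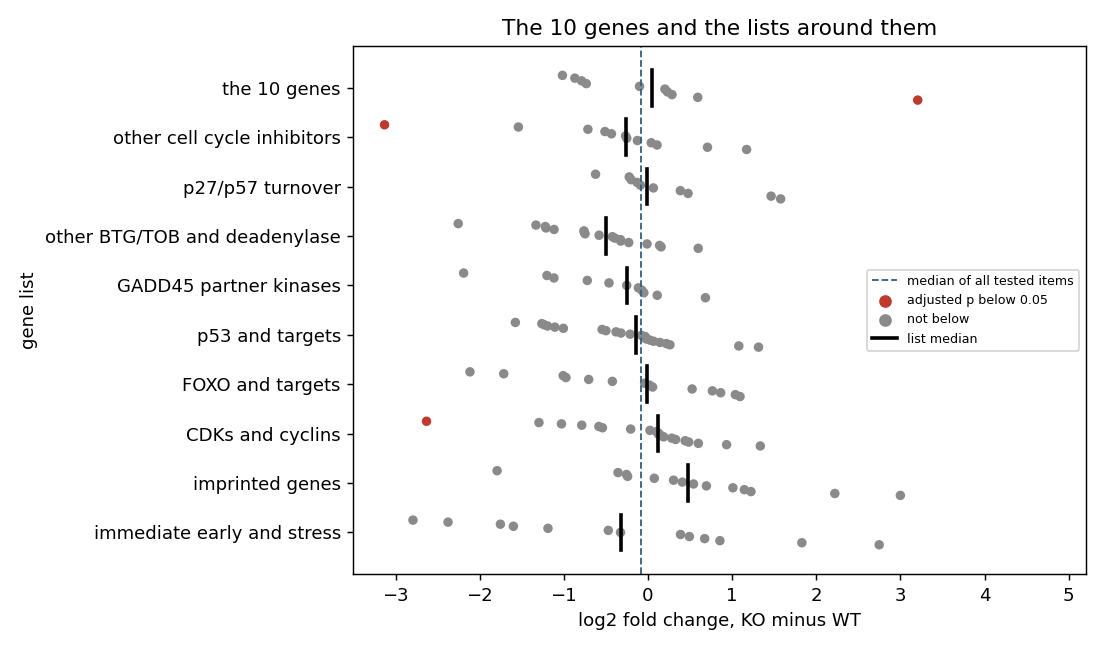
Log2 fold change (KO minus WT) of the 10 genes and of each tested gene in the 9 lists around them; bars are list medians, red points have an adjusted p below 0.05, and the dashed line is the median of all tested items, -0.088. Red points are Btg2, Cables1 and Ccnd2.

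Markers of other cell types moved beside the rise of Btg2, with 3 of 5 tested erythroid markers and 6 of 18 tested periocular mesenchyme markers higher in KO at the same threshold and 1 mesenchyme marker lower. Of the 18 mesenchyme markers, 14 had positive and 4 negative values. The erythroid markers called higher were Hbb-y at 3.16, Hba-a1 at 3.02 and Hbb-b2 at 2.06 (limma adjusted p = 0.010, 0.0094 and 0.028). Those of mesenchyme were Col1a1 at 4.63, Twist2 at 4.33, Col1a2 at 2.84, Prrx1 at 2.73, Ogn at 2.70 and Col3a1 at 2.60. Prrx1 and Ogn were undetected on all WT arrays at the tested probe, so their sizes are not exact. The one mesenchyme marker called lower was Foxc2, at -3.25 (limma adjusted p = 0.035). Foxc1 and Osr2 stood at -3.40 and -1.83 without passing (adjusted p = 0.13 and 0.21). Summed normalized intensity was 5047 to 5666 in KO and 560 to 768 in WT over 8 of 11 erythroid markers, and 7661 to 10530 in KO and 7107 to 7635 in WT over 19 of 20 periocular mesenchyme markers. Over 14 of 15 epithelial markers it was 17350 to 20010 in KO and 20060 to 21460 in WT. None of these 14 epithelial markers passed, with 6 positive and 8 negative values. The defining epithelial genes Cdh1, Epcam, Krt14 and Trp63 were detected on all 6 arrays, and Epcam stood at -1.59 (adjusted p = 0.065). Of the defining mesenchyme genes, Col1a2 and Col3a1 were detected on all 6 arrays, Col1a1 and Twist2 on 3 KO and 2 WT arrays, and Prrx1 on 3 KO and 0 WT arrays. Of the defining erythroid genes, Hba-a1 and Hbb-y were detected on all 6 arrays and Hba-x on 1 KO and 2 WT arrays. Hba-x stood at 0.88 and did not pass (adjusted p = 0.53).

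The summed level of melanocyte and neural crest markers (10 of 10 on the array) was 337 to 636 in KO and 762 to 1034 in WT. Sox10, undetected on all KO arrays, was at least 10.3-fold lower (adjusted p = 0.0041). At 8.73, 9.05 and 8.48 in the WT embryos, this 1 gene made up a large part of the gap between the sums. The defining melanocyte genes Tyr, Dct and Mlana were each detected on 1 KO array and on 0 WT arrays. The summed level of muscle markers (9 of 10) was 83.2 to 114 in KO and 46.4 to 60.0 in WT, and none of them was detected on all arrays of either group. For leukocyte, endothelial, lens, retina and nerve markers the ranges of KO and WT overlapped. Among these, 2 genes passed: the lens and stress gene Cryab was higher in KO by 1.97 (adjusted p = 0.029), and the endothelial gene Egfl7 was lower in KO, where the tested probe was undetected on all 3 arrays (adjusted p = 0.032). Of the defining lens genes, Cryaa was detected on no array, Cryba1 on 1 KO and 3 WT arrays and Mip on 0 KO and 2 WT arrays. Of the defining nerve genes, Tubb3 was detected on no array, Snap25 on 1 KO array and Elavl3 on all 6. Of the defining endothelial genes, Kdr was detected on no array and Pecam1 and Cdh5 on 1 KO array each. The part of these cell types in the level of Btg2 or of the other 9 genes was not tested, and in whole dissected tissue more cells of a type and more RNA per cell cannot be told apart.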

How the data were processed

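Each of the 6 samples was 1 embryo on 1 array, and all arrays lay on 1 slide. The authors deposited an average bead intensity per probe on a linear scale, not normalized between arrays, with its standard error, a count of beads and a detection p-value, per the file headers. GenomeStudio is the tool that the submitters' processing notes name, and its version is not given in the sources used here. Processed intensity values that the authors also deposited, on a linear scale, have medians of 9.03 to 9.05 and lie below 0 for 25.6% of probes; how they were centred and scaled is unknown.

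Intensities were background corrected and quantile normalized with neqc (limma 3.58.1, R 4.3.3; offset 16, log2). A probe was kept if 3 or more arrays gave it a detection p below 0.05 (20853 of 45281), and the probe with the highest mean stood for its gene, which left 13916 tested items. Probe symbols came from the platform annotation, updated through gene identifiers (34885 probes with 1 symbol, 18 with several, 10378 with none). KO was compared with WT by limma's lmFit and eBayes, with Benjamini-Hochberg adjustment over all tested items, and each adjusted p comes from this fit unless another setting is named. The fit was also run on simulated data in which both groups had the spread of WT. That run therefore does not cover the larger spread of the KO arrays. The number of arrays limits the precision. The labels name the embryos as separate, so the spread between arrays includes biological and technical spread. KO arrays correlated with each other at 0.70 to 0.71 and with WT arrays at 0.75 to 0.77. Within WT the range was 0.94 to 0.96. How much of the KO spread is technical was not tested.

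The 10 genes, the gene lists around them and the tests were chosen with earlier results of these data known. All 10 genes were named whatever their values, with every probe. From each list the genes that passed were named, then those with the smallest p up to 4, and for other cell types the defining markers. Alternatives changed how background was corrected, the offset, how arrays were scaled, the filter, how probes of a gene were combined and the variance model, or used array weights, the authors' processed values floored at 16, a replicate block, an adjusted p below 0.10 and leaving out each embryo. Plots were made in Python 3.11.15 with matplotlib 3.10.9.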

Additional observations from a re-analysis of the deposited data

How the results depend on the processing

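Of the 10 genes, Btg2 passed in 16 of 20 alternatives and its direction held in all of them. The count of the 10 genes called was 1, and 0 to 2 on leaving out an embryo (0 to 1 higher, 0 to 1 lower): 0 without any 1 WT embryo, and 2 without KO embryo C, where Gadd45g passed. Titles share the letters A to C between the groups. Deviations of embryos with the same letter correlated at -0.029 to -0.0043, but embryos with different letters were not compared. Whether the letters pair embryos therefore cannot be told. With the letter as a replicate block limma called 0 of the 10 genes, 0 higher (Btg2: 3.21, adjusted p = 0.14) and 0 of all items, with 2079 items at an unadjusted p below 0.05.

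The background count of 336 (115 higher, 221 lower, 65.8% lower) moved more, and the causes were not tested unless the setting itself shows it. It was 1068 with 963 lower with median scaling (90.2% lower, median of all items shifted by -0.40), 245 with 127 lower with cyclic loess (51.8%, 0.18) and 2068 with 1981 lower with no scaling (95.8%, -0.72). It was 660 (311 higher, 349 lower) with no filter, which also shifted that median by 0.15, 189 (94 lower) with detection p below 0.01 on all 6 arrays, 185 (61 higher, 124 lower) with array weights, and 764 (268 higher, 496 lower) at an adjusted p below 0.10. The authors' processed values gave 205 higher of 486. Leaving out an embryo gave 12 to 569 calls (1 to 198 higher, 11 to 393 lower).

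Signs turned for genes that did not pass. Median scaling gave Cdkn1a -0.041 and Cdkn2c -0.038. No scaling gave Cdkn1a -0.36, Cdkn1c -0.25, Cdkn2c -0.36 and Ccng2 -0.31. Gadd45b was 0.54 without background correction, 0.83 with offset 50, 0.22 with cyclic loess and 0.64 with probes averaged. On leaving out an embryo Gadd45b ran from -0.66 to 2.12, Cdkn2c from -0.62 to 0.63 and Cdkn1c from -0.0085 to 0.47. For Gadd45b the 2.12, 0.54 and 0.83 came from its other probe and the -0.66 from the probe used, so that range joins different probes. The remaining KO arrays did not detect Cdkn2c without KO embryo B, so its sign there cannot be read. Btg1, Cdkn1b, Gadd45a and Gadd45g had negative values in every alternative run, which for Gadd45a included -0.0035 with cyclic loess and -0.21 without background correction. Probes at background on the KO arrays limit Cdkn2c and the Gadd45 genes.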
